A study of Mus musculus with 35 samples.

Results

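The promoters of the mouse proteasome genes were followed in purified hepatocyte nuclei by ATAC-seq, which reads open chromatin as sites that a transposase can cut. A region was taken when the authors' annotation gave a Psma, Psmc, Psmd, Psme, Psmf or Psmg gene with a number, or one of Psmb1 to Psmb7, as its nearest gene and its centre lay within 1000 bp of that gene's transcription start site. This gave 98 regions of 43 genes among 177904 regions in all, of which 32762 lay that near to a start site. One of the genes, Psmc3ip with 3 regions, fits the name pattern but encodes a factor of meiotic recombination, which leaves 95 regions of 42 proteasome genes. Psmc1 had no region this near (its nearest lay 1558 bp away), and Psma8 had none at any distance.

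Mice of 4 cohorts were used, all with the genotype CAG-Sun1/sfGFP, Albumin-Cre, in which Cre made in hepatocytes turns on a fluorescent tag of the nuclear envelope by which nuclei are pulled out. The tag was thus carried by controls and tumor bearers alike. The C26 cohort (BALB/c) held cachexia, pre-cachexia and PBS mice. The 8025 cohort (C57BL/6N) held cachexia and PBS mice, the NC26 cohort (BALB/c) and the MC38 cohort (C57BL/6N) weight-stable tumor and PBS mice. Each group had 4 mice except 8025 PBS with 3, and each library is 1 mouse. C26 and 8025 are tumor lines that cause wasting, and cachexia livers were taken after a weight loss of more than 10%, all at zeitgeber time 9. The labels used here do not define the pre-cachexia state or give ages. Tumor line, strain and cohort go together, so cohorts were compared as differences of their effects against their own PBS mice.

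The proteasome is the cell's main protease for ubiquitin-tagged proteins. Its barrel-shaped core has outer alpha rings that gate entry and inner beta rings, in which Psmb5, Psmb6 and Psmb7 cut the substrate. A regulatory cap of ATPases (Psmc genes) and non-ATPase subunits (Psmd genes) binds ubiquitin, removes it and unfolds the substrate. Other caps are built of Psme1 with Psme2, of Psme3 or of Psme4, Psmf1 is a regulator first described as an inhibitor, and the Psmg products with Psmd5, Psmd9 and Psmd10 help to assemble core and base. In wasting muscle, proteasome genes are known to be raised, and the genes of the complex are known to be induced together by Nfe2l1 when proteasome activity is short.

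The promoter sequences of 4 genes named in the results below are shown. Psmb6 and Psmg4 passed the test in C26 cachexia and Psme2 had the most open promoter. Psme4 was the gene with a called fall, in a region outside the window shown. Psmd3, called in both cachexia cohorts, had no entry in the RefSeq promoter table and is not shown. The 4 sequences are RefSeq sequences of GRCm38.p6 from 250 bases before to 50 bases after the start site, 5′ to 3′ on the gene's strand. Capitals mark every match, on either strand, to GGGCGG (GC box), TGANNNNGC (antioxidant response element core), TGACG (short cyclic AMP response element), CCGGAAG (ETS motif) or CCAAT, where neighbouring matches run together. CCAAT had no match in the 4 windows. TGACG is only a part of the full cyclic AMP response element, which the word short marks here and below. The windows lie at chr11:70525107-70525406 (plus strand) for Psmb6, chr13:34162714-34163013 (plus) for Psmg4, chr14:55591052-55591351 (minus) for Psme2 and chr11:30771525-30771824 (plus) for Psme4.
Psmb6: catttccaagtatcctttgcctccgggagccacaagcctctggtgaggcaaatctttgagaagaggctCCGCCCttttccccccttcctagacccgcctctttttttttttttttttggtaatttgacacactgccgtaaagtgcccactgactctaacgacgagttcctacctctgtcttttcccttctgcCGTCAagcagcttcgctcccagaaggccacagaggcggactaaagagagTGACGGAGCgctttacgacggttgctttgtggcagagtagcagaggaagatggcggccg
Psmg4: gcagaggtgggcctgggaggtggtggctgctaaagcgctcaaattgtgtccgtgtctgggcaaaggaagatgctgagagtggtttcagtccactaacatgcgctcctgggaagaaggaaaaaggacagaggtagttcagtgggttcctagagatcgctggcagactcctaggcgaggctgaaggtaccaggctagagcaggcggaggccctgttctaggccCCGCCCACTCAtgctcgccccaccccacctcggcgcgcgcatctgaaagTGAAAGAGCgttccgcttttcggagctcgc
Psme2: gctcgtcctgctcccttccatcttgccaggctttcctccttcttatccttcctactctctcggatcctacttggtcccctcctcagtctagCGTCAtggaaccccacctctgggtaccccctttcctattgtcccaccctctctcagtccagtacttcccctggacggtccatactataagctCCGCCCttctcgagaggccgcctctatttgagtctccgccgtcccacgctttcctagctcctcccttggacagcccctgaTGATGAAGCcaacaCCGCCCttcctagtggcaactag
Psme4: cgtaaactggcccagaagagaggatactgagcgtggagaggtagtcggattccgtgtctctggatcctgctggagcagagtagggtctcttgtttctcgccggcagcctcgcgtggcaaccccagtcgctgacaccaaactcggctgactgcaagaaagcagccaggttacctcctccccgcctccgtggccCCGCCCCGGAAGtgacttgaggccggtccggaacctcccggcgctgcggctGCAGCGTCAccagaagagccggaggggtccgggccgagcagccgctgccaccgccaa

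Of the 43 genes, 36 had an entry in the RefSeq promoter table. Psmc3ip was left out, and the 35 windows of proteasome genes, of 300 bases each, were searched for these motifs on both strands. The GC box was in 22 of 35 windows (62.9%), against 60.1% of 14008 windows at the promoters of all genes with an open promoter region. The antioxidant response element core was in 19 (54.3%, against 43.1%), the short cyclic AMP response element in 17 (48.6%, against 29.4%) and the ETS motif in 13 (37.1%, against 15.6%). CCAAT was in 10 (28.6%, against 37.6%). Over all 32851 windows the shares were 35.7% for the GC box, 41.3% for the antioxidant response element core, 20.8% for the short cyclic AMP response element, 8.86% for the ETS motif and 37.4% for CCAAT. In the Psmb6 window printed above, the antioxidant response element core begins 9 bases before the start site and holds a short cyclic AMP response element in its first bases. In the Psme4 window the ETS motif overlaps a GC box. Psmd3, Psmb1, Psmb2, Psmb7, Psmc3, Psmd7 and Psmg2 were not searched. A match describes these letters and is no measure of binding.

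Levels are given as scaled tags, the deposited tags in 400 bp per 10 M tags of the library, divided by the library's TMM factor. For each gene the member region with the highest mean served as its main region. Main regions had a median of 86.1 deposited scaled tags, against 67.8 for the main promoter regions of 14401 genes, and 29 of 43 lay above that median. In 37 of the 43 main regions the authors called a peak in every one of the 35 libraries, and 38 lay within 200 bp of the start site. The 55 other regions had a median of 20.4, and 77 of the 98 regions share bases with another member, so regions of 1 gene are not independent. The authors' annotation placed 62 of the 98 at a promoter, 33 in an intron, 2 in an exon and 1 in a 5′ UTR. Just inside the limit of 1000 bp lay regions of Psmc3 (830 bp, a mean of 8.56 deposited tags per 10 M, before TMM) and Psmd6 (935 bp, 7.78), and just outside it regions of Psmb3 (1024 bp upstream, 21.7) and Psmf1 (1136 bp, 17.2).

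The openness of the main region differed far more between genes than between conditions. Over the 9 group means, the highest was 1.08 to 1.86 times the lowest in the 42 proteasome genes (median 1.26), and Psmd3 had the largest ratio, while the mean over groups ran from 13.4 scaled tags at Psmd10 to 213 at Psme2. In the alpha ring Psma5 was highest with 186 and Psma2 lowest with 24.1. In the beta ring Psmb3 had 151 and the catalytic gene Psmb5 had 26.8, below the other catalytic genes Psmb6 (111) and Psmb7 (31.4). Among the ATPases Psmc6 had 163 and Psmc5 30.0. Among the non-ATPase genes Psmd8, a lid subunit, had 152 and Psmd1, a scaffold of the base, 36.2. Among the caps Psme2 was highest and Psmf1 lowest with 37.1, and among the assembly chaperones Psmg1 had 106 and Psmd10 the least. The genes of 1 ring thus spread widely, although their products are built into the complex in equal numbers. A tag count per 400 bp is a level of open chromatin, not of transcript.

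**Figure D1:**
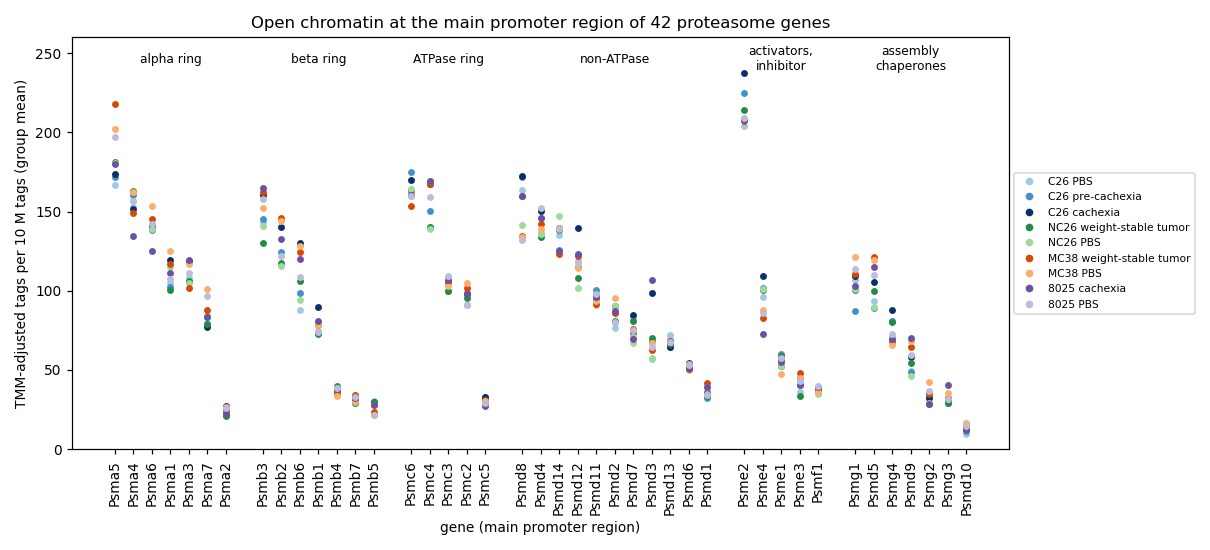
Open chromatin at the main promoter region of the 42 proteasome genes. The vertical axis is the mean of TMM-adjusted tags per 10 M tags, each point is 1 of 9 groups, and genes are sorted within their role. Points of 1 gene lie close together (highest over lowest 1.08 to 1.86) while genes of 1 role spread widely, and Psme2 stands highest.

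Several of the least open main regions face a second gene. Psma2 starts 205 bp from Mrpl32 on the opposite strand, and the highest region assigned to Mrpl32 had a mean of 172 deposited tags per 10 M, before TMM. Psmd10 starts 196 bp from Atg4a (94.5), Psmc5 101 bp from Ftsj3 (55.2) and Psmd13 85 bp from Sirt3 (94.8), a mitochondrial deacetylase. Psma7 starts 19 bp from Ss18l1 (26.2) and Psme2 641 bp from Rnf31 (169). In these 6 pairs the authors' nearest-gene rule decides which gene a region is given to. The 400 bp windows at Psma2, Psmd10, Psmc5 and Psma7 share some bases with the neighbour's region, and tags there count for both genes. Those at Psme2 and Psmd13 share no bases with it. Tags in the rest of the neighbour's region are not in the level of the proteasome gene.

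The depth of a library was 11.3 to 23.8 M tags, but 3.47 M for replicate 1 of the NC26 tumor mice. Over 51 pairs of replicates, Spearman coefficients across regions ran from 0.837 to 0.944. Of the hepatocyte marker genes 9 of 10 had a promoter region, with summed levels of 1062 to 1517 scaled tags per library. The sum was 1332 to 1445 in C26 cachexia and 1062 to 1232 in C26 PBS, without overlap, and 1198 to 1429 in 8025 cachexia and 1183 to 1358 in 8025 PBS. No region lay at the start sites of the 6 lymphocyte genes. Of 8 macrophage genes 2 had one, summing to 11.9 to 17.8 in 8025 cachexia and 5.17 to 11.1 in 8025 PBS, and 7.66 to 13.7 in C26 cachexia and 4.65 to 14.6 in C26 PBS. Of 6 endothelial genes 2 had one, summing to 14.2 to 18.0 in 8025 cachexia and 9.14 to 15.2 in 8025 PBS, and 18.8 to 26.3 in C26 cachexia and 13.4 to 20.1 in C26 PBS. Of 5 neutrophil genes 1 had one, at 6.11 to 9.71 in 8025 cachexia and 1.41 to 4.70 in 8025 PBS, and 7.77 to 12.2 in C26 cachexia and 3.08 to 9.38 in C26 PBS. Of 6 stellate cell genes 4 had one, summing to 52.1 to 72.5 in 8025 cachexia and 81.3 to 91.7 in 8025 PBS, and 58.0 to 78.1 in C26 cachexia and 62.1 to 90.3 in C26 PBS. These genes did not move together. In deposited values, mean Reln went from 62.6 in 8025 PBS to 26.8 in 8025 cachexia and Col1a1 from 13.7 to 10.7. Lrat went from 9.67 to 21.6 and Des from 2.78 to 3.91. Of 4 cholangiocyte genes 2 had a promoter region, summing to 13.7 to 20.9 in 8025 cachexia and 11.8 to 21.2 in 8025 PBS, and 16.0 to 21.8 in C26 cachexia and 9.89 to 20.01 in C26 PBS. The tissue-defining genes Cd68, Csf1r, Clec4f, Pecam1, Cdh5, Ly6g and Csf3r had no region this near to a start site. The part of these cells in the results was not tested.

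In C26 cachexia 4 of the 98 regions, of 3 genes, were more open than in C26 PBS and none was less open (limma on log2 values, adjusted p under 0.05 over all regions). Over all regions 14.2% were called and 7.42% were higher, and 10.4% of all promoter regions were called, so the members' share is under the background. The genes were Psmb6, the caspase-like catalytic subunit, Psmd3, a subunit of the lid, and Psmg4, a chaperone of core assembly. Since nuclei were pooled within a mouse, more open nuclei and more cutting per nucleus cannot be told apart. The median log2 change of the 43 main regions was 0.10, and that of all 14396 main promoters tested was also 0.10. With TMM factors from promoter regions alone 3 regions were higher and 1 lower, the lower one a region 679 bp into Psme4, and without C26 PBS replicate 1 there were 7 calls.

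Psmb6 (chr11:70525107-70525507, mm10, promoter, centre 50 bp before the start site) had 129.5, 138.7, 122.9 and 129.5 scaled tags in C26 cachexia, against 91.9, 97.8, 82.2 and 78.5 in C26 PBS. All 4 cachexia libraries lay above all 4 PBS libraries. Such a separation upward was seen at 7 of the 98 regions, 9.99% of all regions and 11.4% of promoter regions. Downward it was seen at 4 of the 98, 8.8% of all regions and 4.79% of promoter regions. The log2 change at Psmb6 was 0.57 ± 0.11 (SE), a 1.48-fold rise (adjusted p = 0.00013). Its means were 130 ± 6.49 in cachexia and 87.6 ± 8.83 in PBS (SD, n = 4 each).

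The Psmd3 promoter was covered by 2 regions that share 133 bases. The upstream one (chr11:98682091-98682491, centre 263 bp before the start site) had 84.9, 99.8, 120.2 and 89.5 scaled tags in C26 cachexia, against 60.6, 58.5, 52.2 and 57.6 in C26 PBS. The groups did not overlap, and the rise was 1.70-fold (log2 change 0.76 ± 0.14, adjusted p = 0.00014). The region over the start site (chr11:98682359-98682759, centre 5 bp after it) had 75.2, 89.6, 81.5 and 81.4 in C26 cachexia, against 60.6, 54.7, 49.1 and 57.1 in C26 PBS. Here too every cachexia library was above every PBS library (0.56 ± 0.13, adjusted p = 0.0028). Another, weak region 515 bp into the gene, in intron 1, had 12.6 to 18.0 in C26 cachexia and 12.2 to 17.9 in C26 PBS and overlapped throughout. Psmd3 lies between Gsdma, 4846 bp away on one side, and Csf3, the gene of granulocyte colony-stimulating factor, 4205 bp away on the other.

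Psmg4 (chr13:34162735-34163135, centre 29 bp before the start site) had 86.8, 92.9, 86.4 and 84.4 scaled tags in C26 cachexia, against 56.5, 74.5, 71.6 and 64.6 in C26 PBS. The groups did not overlap, and the change was 0.39 ± 0.13 (adjusted p = 0.028). This call was lost without C26 PBS replicate 1 (0.32, adjusted p = 0.12) or 4 (adjusted p = 0.065), without cachexia replicate 2 (adjusted p = 0.077) or 3 (adjusted p = 0.053), and under 3 of 4 other scalings. Psme2, a subunit of the interferon-induced cap, missed the threshold with a 1.17-fold difference (0.22 ± 0.08, adjusted p = 0.053). It had 233.5, 244.6, 222.2 and 248.6 in C26 cachexia, against 217.2, 218.6, 205.1 and 174.0 in C26 PBS, again without overlap.

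By role, the alpha ring held 15 regions in this comparison and none was called. The main regions of its 7 genes had log2 changes between -0.04 (Psma7) and 0.22 (Psma2). In the beta ring 1 of 13 regions was called. Psmb2 and Psmb1, which carry no active site, had 0.28 ± 0.10 and 0.27 ± 0.11 (adjusted p = 0.067 and 0.099), and the catalytic genes Psmb5 and Psmb7 had -0.03 ± 0.20 and 0.11 ± 0.19. None of the 8 ATPase regions was called, and Psmc4 had the lowest adjusted p there (0.26 ± 0.10, adjusted p = 0.095). Of 30 non-ATPase regions the 2 of Psmd3 were called. The ubiquitin receptor Psmd4 had 0.15 ± 0.09 and the deubiquitinase Psmd14 0.04 ± 0.11 at their main regions. None of 17 regions of the caps and Psmf1 was called, and 1 of 12 regions of the assembly chaperones was. The log2 changes of the 7 chaperone main regions lay between 0.03 (Psmg1) and 0.41 (Psmd10, SE 0.23).

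**Figure D2:**
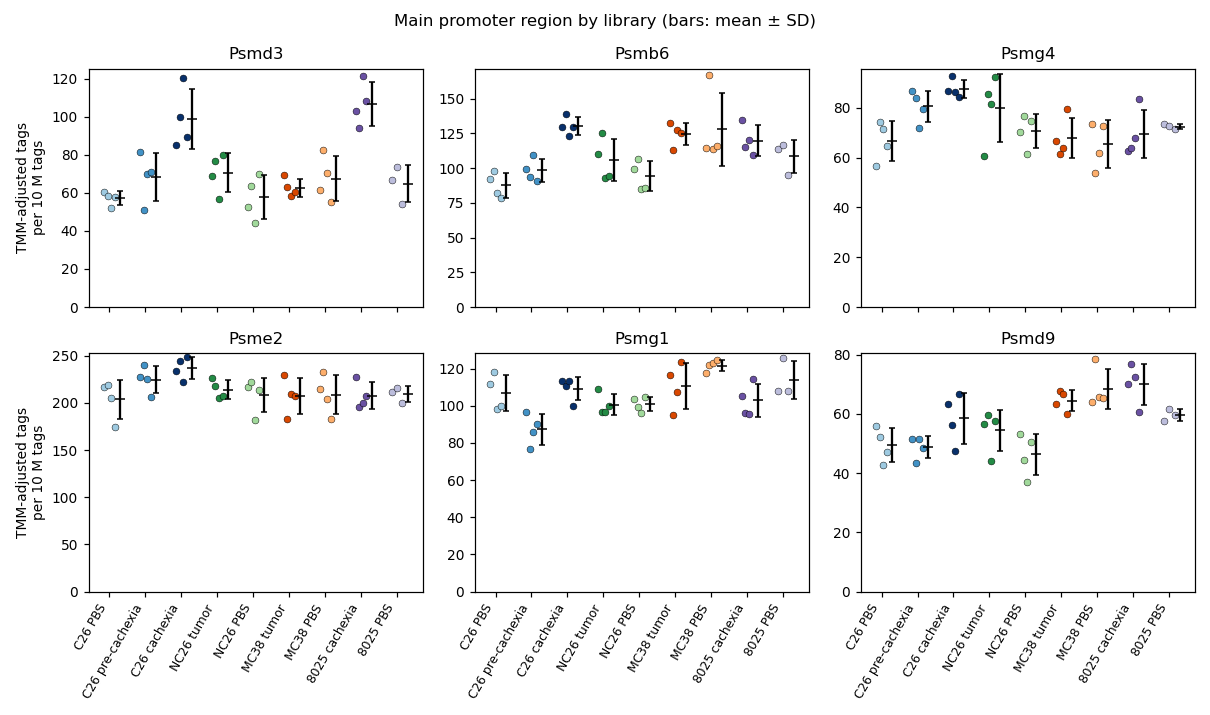
Main promoter regions of 6 genes in each of the 35 libraries. The vertical axis is TMM-adjusted tags per 10 M tags from 0, each point is 1 library, and the bars beside them are the mean ± SD of the group. Psmd3 stands high in the C26 cachexia and 8025 cachexia libraries, Psmb6 and Psmg4 in C26 cachexia against C26 PBS, and Psmg1 is low in C26 pre-cachexia.

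In C26 pre-cachexia 1 of 98 regions was called against C26 PBS, and it was lower (1.31% called over all regions, 0.264% lower, and 0.632% of promoter regions). This was a region in intron 1 of Psme4, the large cap protein that binds the core without ubiquitin or ATP, 500 bp into the gene (chr11:30772075-30772475). The region shares bases with other Psme4 regions, and the authors called a peak in it in 2 of the 35 libraries. It had 18.4, 22.2, 19.3 and 24.9 scaled tags in C26 pre-cachexia, against 29.5, 30.3, 32.2 and 44.5 in C26 PBS, without overlap (-0.65 ± 0.17, adjusted p = 0.039). Pre-cachexia lay wholly below PBS at 5 of the 98 regions, against 3.65% of all regions and 2.6% of promoter regions. It lay wholly above PBS at 0 of the 98, against 4.11% of all regions and 3.21% of promoter regions. The call was lost without any 1 of the 8 libraries other than pre-cachexia replicate 4 (adjusted p 0.051 to 0.16). The main Psme4 region, whose sequence is given above, had 0.08 ± 0.11 in the same comparison, and in C26 cachexia the intronic region had 22.99 to 27.1 (-0.37 ± 0.17 against PBS, adjusted p = 0.15). Psmb6 and Psmd3 were not called at this stage. Psmb6 had 99.2, 94.0, 109.7 and 91.1 in pre-cachexia, and the upstream Psmd3 region 81.3, 51.1, 70.1 and 71.1. Both overlapped the PBS libraries, and at Psmd3 replicate 2 lay below all 4 of them.

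Cachexia was also set against pre-cachexia within the C26 cohort, where 3 regions were higher and none lower (5.42% called over all regions, 2.22% higher, and 2.6% of promoter regions). These were Psmb6 (0.40 ± 0.11, adjusted p = 0.016), the upstream Psmd3 region (0.53 ± 0.14, adjusted p = 0.020) and Psmg1, a chaperone of alpha ring assembly (0.32 ± 0.10, adjusted p = 0.041). Psmg1 (chr16:95990769-95991169) had 113.1, 110.7, 113.2 and 99.9 in cachexia, against 96.7, 76.5, 85.9 and 90.2 in pre-cachexia. Its PBS libraries had 98.2 to 118.2, close to cachexia, and its pre-cachexia level was the lower one (-0.29 ± 0.10 against PBS, adjusted p = 0.15). The 3 calls did not withstand the loss of single libraries. Without pre-cachexia replicate 2 or without cachexia replicate 2 none of the 98 was called, and without pre-cachexia replicate 4 or without cachexia replicate 3 only 1 was.

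In 8025 cachexia 2 of 98 regions were called against 8025 PBS, both higher and both of Psmd3 (12.3% called over all regions, 7.24% higher, and 6.97% of promoter regions). The region over the Psmd3 start site had 97.4, 82.1, 105.0 and 97.4 scaled tags in 8025 cachexia, against 54.8, 70.5 and 51.002 in 8025 PBS (0.70 ± 0.15, 1.62-fold, adjusted p = 0.00067). The upstream region had 103.1, 94.0, 121.4 and 108.3 in 8025 cachexia, against 66.6, 73.3 and 54.3 in 8025 PBS (0.72 ± 0.16, 1.64-fold, adjusted p = 0.0011). In both regions the groups did not overlap, and Psmd3 was the one proteasome gene called in both cachexia cohorts. In 8025 cachexia 4 of the 98 regions lay wholly above PBS, against 13.2% of all regions and 8.05% of promoter regions. Wholly below PBS lay 5 of the 98, against 10.9% of all regions and 10.6% of promoter regions. The weak intronic Psmd3 region had 12.1 to 18.0 in 8025 cachexia, against 7.3 to 13.7 in 8025 PBS (0.59 ± 0.26, adjusted p = 0.14).

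No other proteasome promoter passed in 8025 cachexia with these settings. With array weights the Psme4 region named next was also called (16.4% called over all regions), and with cyclic loess Psmd8 was (12.4%). A region 286 bp before the Psme4 start site had 15.5 to 18.9 scaled tags in 8025 cachexia, against 24.7 to 25.1 in 8025 PBS (-0.51 ± 0.20, adjusted p = 0.090). It shares bases with the main Psme4 region, and the authors called a peak in it in 1 of the 35 libraries. Psmd8 had 189.0, 141.0, 164.4 and 144.6 in 8025 cachexia, against 114.6, 141.4 and 139.6 in 8025 PBS, with overlap (0.27 ± 0.11, adjusted p = 0.12). Psmb6 had 109.4 to 135.0 in 8025 cachexia, against 95.2 to 116.7 in 8025 PBS (0.14 log2 change), and Psmg4 62.8 to 83.6 against 71.4 to 73.4 (-0.07). The median log2 change of the 43 main regions was -0.03, against -0.003 over all main promoters. The difference between the C26 and 8025 cachexia effects was called at none of the 98 regions (limma, 0.1% called over all regions), and 5 had an unadjusted p under 0.05. The count was also 0 by edgeR (0.118% over all regions) and by DESeq2 (0.451%). The lowest adjusted p were at the region 286 bp before the Psme4 start site (0.74 ± 0.27, adjusted p = 0.34) and at Psmb6 (0.43 ± 0.16, adjusted p = 0.34).

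**Figure D3:**
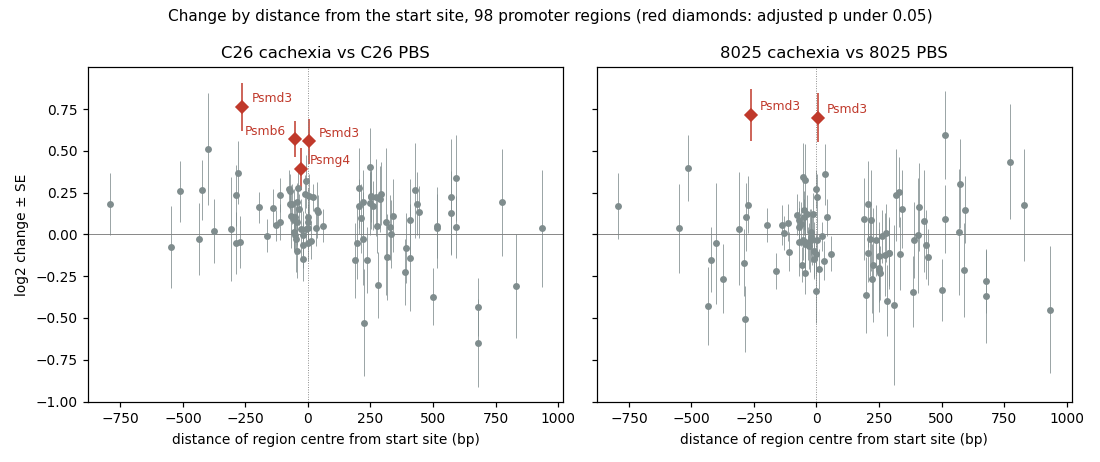
Log2 change ± SE of the 98 promoter regions by the distance of their centre from the start site in bp, for C26 cachexia against C26 PBS (left) and 8025 cachexia against 8025 PBS (right). Red diamonds passed an adjusted p under 0.05. The 4 called regions in C26 and the 2 in 8025 lie between 263 bp before and 5 bp after the start site, and all are above 0.

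Weight-stable tumors gave no called proteasome promoter. In NC26 tumor mice 0 of 98 regions were called against NC26 PBS by limma (0.177% called over all regions), and 6 had an unadjusted p under 0.05. The lowest adjusted p were at Psme3, the nuclear cap protein, 280 bp before its start site (-0.51 ± 0.19, adjusted p = 0.30), and at an intronic Psmf1 region (-1.17 ± 0.44, adjusted p = 0.33). In MC38 tumor mice 0 of 98 were called against MC38 PBS (0.0186% called over all regions), none had an unadjusted p under 0.05, and the lowest adjusted p was 0.82 (Psma3, -0.19 ± 0.10, and a Psmd14 region, -0.20 ± 0.11). The upstream Psmd3 region had 68.7, 76.5, 56.7 and 79.9 scaled tags in NC26 tumor mice, against 52.6, 63.8, 43.96 and 69.8 in NC26 PBS (0.30 ± 0.14, adjusted p = 0.46). It had 69.2, 62.9, 58.4 and 60.3 in MC38 tumor mice, against 61.5, 82.3, 70.3 and 55.1 in MC38 PBS (-0.09 ± 0.14). Both pairs of groups overlapped. For both tumors the count was also 0 of 98 by edgeR (0.075% over all regions for NC26 and 0.0226% for MC38) and DESeq2 (0.342% and 0.16%). Within the 2 library series (2 mice a group) limma also gave 0, but in series A it called no region of any gene, so that count says nothing. In series B 0.0682% of all regions were called for NC26 and 0.0156% for MC38.

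The effects of the tumors were then compared between cohorts of the same strain. The 8025 cachexia effect exceeded the MC38 tumor effect at both Psmd3 regions and at no other member (1.71% called over all regions, 0.96% higher, and 0.772% of promoter regions). The difference of the log2 changes was 0.83 ± 0.20 over the start site (adjusted p = 0.017) and 0.80 ± 0.21 upstream (adjusted p = 0.035). With 8025 PBS replicate 1 or 4 left out neither passed (start site region 0.79, adjusted p = 0.056, and 0.74, adjusted p = 0.051). With MC38 PBS replicate 2 or 3, MC38 tumor replicate 2 or 3 or 8025 cachexia replicate 3 or 4 left out, only the start site region passed. The C26 cachexia effect minus the NC26 tumor effect was called at none of the 98 regions by limma (2.21% called over all regions). Of these 9 had an unadjusted p under 0.05, edgeR called none (1.58% over all regions) and DESeq2 called 1 (3%). Without C26 PBS replicate 1, NC26 tumor replicate 2 or NC26 PBS replicate 3 limma called 1. The 2 regions of Psme3 were nearest to the threshold (0.88 ± 0.27, adjusted p = 0.066, and 0.61 ± 0.22, adjusted p = 0.15). For Psmb6 this difference was 0.41 ± 0.15 (adjusted p = 0.15), so its rise in C26 cachexia was not shown to differ from the effect of the NC26 tumor. Neither Psmd3 region was called in this difference either, so the same limit holds for the rise of Psmd3 in C26 cachexia.

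**Figure D4:**
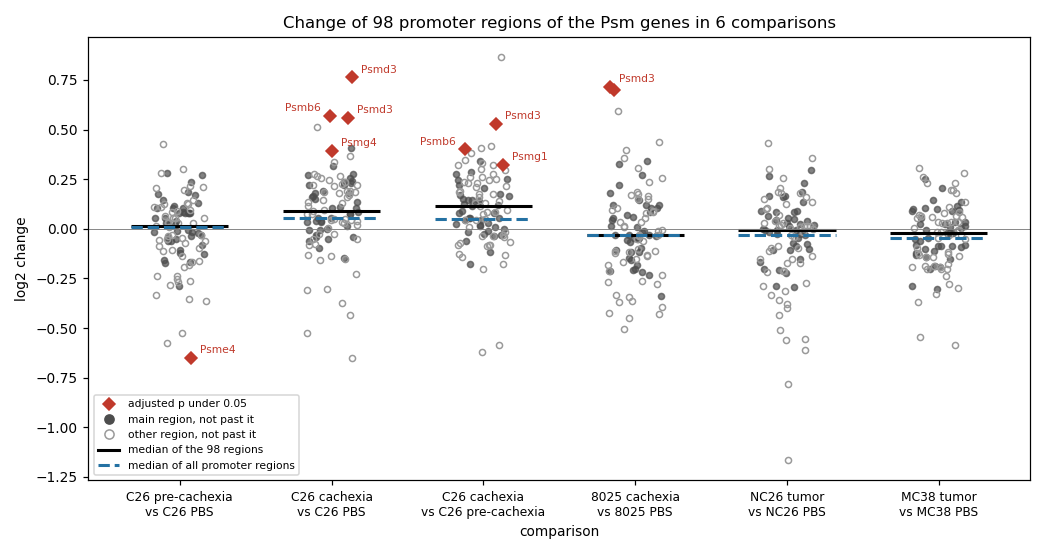
Log2 changes of the 98 promoter regions in 6 comparisons. Filled points are main regions, open points other regions, red diamonds passed an adjusted p under 0.05, black lines are the median of the 98 and dashed blue lines the median of all promoter regions. Called regions are 4 in C26 cachexia, 3 in cachexia against pre-cachexia, 2 in 8025 cachexia and 1, below 0, in pre-cachexia, and the medians of members and of all promoters lie within 0.12 of 0.

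Control livers of the NC26 and MC38 cohorts, which differ in strain, were compared with each other, and strain and cohort cannot be told apart here. In NC26 PBS (BALB/c) 4 of 98 regions were lower than in MC38 PBS (C57BL/6N) and none was higher (9.08% called over all regions, 4.9% lower, and 8.51% of promoter regions). They were Psmd9, a chaperone of the base (-0.56 ± 0.13, adjusted p = 0.0022), Psmb6 (-0.43 ± 0.11, adjusted p = 0.0052), Psmd5 (-0.42 ± 0.12, adjusted p = 0.021) and Psmb2 (-0.32 ± 0.10, adjusted p = 0.043). Psmd9 had 37.1 to 53.1 scaled tags in NC26 PBS, against 64.1 to 78.4 in MC38 PBS, without overlap. NC26 PBS lay wholly lower at 5 of the 98 regions, against 6.85% of all regions and 11.1% of promoter regions. It lay wholly higher at 3 of the 98, against 6.33% of all regions and 2.94% of promoter regions. Psmb6 had 84.7 to 106.8 in NC26 PBS, against 113.8 to 167.3 in MC38 PBS. The BALB/c PBS mice of the C26 cohort had 42.8 to 56.0 at Psmd9 and 78.5 to 97.8 at Psmb6, and the C57BL/6N PBS mice of the 8025 cohort 57.4 to 61.7 and 95.2 to 116.7. At Psmb6, 3 of the 4 MC38 PBS libraries had 113.8 to 116.0, and replicate 2 had the 167.3. The median over the 43 main regions was -0.10, and over all main promoters -0.09. Under TMM factors from promoters 1 region, of Psmb1, was higher and 2 were lower. Without NC26 PBS replicate 3 or MC38 PBS replicate 2 there were 2 calls. The Psmb2 call was lost without any 1 of the 8 mice other than NC26 PBS replicate 1 and in 6 of 16 other settings. The Psmd5 call was lost without NC26 PBS replicate 2 or 3 or MC38 PBS replicate 3 and in 5 of 16 settings. The Psmb6 call was lost without MC38 PBS replicate 2 (-0.32, adjusted p = 0.066). Within library series A (2 mice a group) none was called (1.52% over all regions) and the change was -0.54 for Psmd9 and -0.43 for Psmb6. Within series B 1 was called (5.25%), and the changes were -0.60 and -0.44.

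Other genes of the pathway were also examined. Of 42 listed genes outside the naming rule, 35 had a promoter region, among them immunoproteasome subunits, deubiquitinases, ubiquitin genes, shuttle factors and regulators of proteasome genes. In C26 cachexia 5 of the 35 were higher and none lower, against 10.9% higher over all main promoters. Fbxo31, a ubiquitin ligase subunit, had 459 ± 28.8 scaled tags in cachexia and 358 ± 34.7 in PBS (SD, n = 4 each; 0.36 ± 0.07 SE, adjusted p = 0.00022). Nfya, a subunit of the CCAAT-binding factor NF-Y, had 398 ± 14.6 in cachexia and 327 ± 19.0 in PBS (0.28 ± 0.06, adjusted p = 0.00056), and its partner Nfyc 135 ± 10.5 and 103 ± 12.6 (0.40 ± 0.11, adjusted p = 0.0074). The ubiquitin-activating enzyme gene Uba6 was also higher (0.23 ± 0.07, adjusted p = 0.014). In 8025 cachexia none of the 35 was higher and 1 was lower, against 3.47% lower over all main promoters. This was Nfe2l2, which encodes the oxidative stress factor that binds antioxidant response elements, with 315 ± 17.0 in cachexia (n = 4) and 388 ± 26.8 in PBS (n = 3; -0.30 ± 0.08, adjusted p = 0.0062). Nfe2l1 was called in neither (0.14 ± 0.08 in C26 and 0.04 ± 0.08 in 8025), nor was the atrophy ligase gene Fbxo32 (0.24 ± 0.14 and -0.36 ± 0.15). The median over the 35 was 0.10 in C26 and -0.06 in 8025. In the C26 cachexia effect minus the NC26 tumor effect 2 of the 35, Nfya and Uba6, were higher and none lower (1.35% higher over all main promoters), and in NC26 PBS against MC38 PBS 7 were lower and none higher (9.05% lower).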

How the data were processed

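Open chromatin was measured by ATAC-seq in hepatocyte nuclei of 35 mice (9 groups of 4 cohorts, about 25000 nuclei each, 12 amplification cycles), per the labels' protocols. The submitters' processing notes name mm10, BWA 0.7.5a-r405, SAMtools and HOMER. How duplicates were treated and peaks called is not stated in them. Per the file headers, the authors' deposited signal is the number of tags in a 400 bp window at a merged peak per 10 M tags. Multiplied by library totals, 100% of values became whole read ends (tolerance 0.05, each end 0.5 tag).

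Here, values were divided by TMM factors (0.803 to 1.25), a pseudocount of 1 was added, and limma-trend with robust empirical Bayes was fitted to log2 values of all 35 libraries, with 9 groups and the library series (2 number ranges in the library names; all C26 libraries in one, all 8025 in the other) as terms. Fold changes on this scale understate those of low regions. filterByExpr (minimum count 10, total 15) kept 177251 regions, all 98 members among them, and removed 653. P-values were adjusted by Benjamini-Hochberg over all kept regions within a comparison, at 0.05. The fit was tested on simulated data, with 50 regions changed at each fold in C26 cachexia, all at or above the median level. It recovered 0% of 1.25-fold, 14% of 1.5-fold, 70% of 2-fold and 62% of 0.5-fold changes, with 4 false calls among 176559 regions. Far fewer regions changed there than in C26 cachexia, where 14.2% of regions were called, which makes the adjusted threshold stricter in the simulation. Main regions of members had a median of 86.1 deposited scaled tags, against 10.9 over all regions. The rates are therefore not those of the members in the real comparison. A region that was not called is still not shown to be unchanged. Replicates varied 2.39 to 6.39 times as much as independent read ends would (51 pairs), so counting error alone understates the error. The main fit gave all libraries equal weight whatever their total tags, and NC26 tumor replicate 1 (3.47 M) is the shallowest.

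Named members were all past the threshold in a comparison (at most 8 each way), otherwise the 2 with the lowest adjusted p, the highest and lowest main region of each role, and for single-library values the 4 lowest adjusted p in each cachexia cohort. Other values beside them, such as the catalytic subunits, Nfe2l1 and Fbxo32, were chosen after values were seen. Pathway genes outside the rule were listed by hand, and 1 of those called is not reported here. The members and lists were chosen with earlier results of these data known. Same replicate numbers did not pair mice (23 pairs, correlations -0.155 to 0.0766, none over 0.1). Alternatives were RLE factors, library totals, cyclic loess, TMM on promoters, pseudocounts of 0.25 and 5, no filter, promoters only, no library series, the promoter tag share as covariate, array weights, the replicate block, single cohorts or series, each replicate left out, edgeR's quasi-likelihood test and DESeq2 on the recovered read ends. The software was DESeq2 1.42.0, edgeR 4.0.16 and limma 3.58.1 in R 4.3.3, with Python 3.11.15. RefSeq promoter sequences were matched by symbol.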

Additional observations from a re-analysis of the deposited data

Results flagged for a closer look

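The difference between the 8025 cachexia effect and the MC38 tumor effect was called at both Psmd3 promoter regions, by 0.83 on the log2 scale over the start site and 0.80 upstream of it. These regions share bases, and each effect was taken against the cohort's own PBS mice.

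In groups of 4 mice, 88 sets of values were examined for a library far from the other 3, over the 9 regions called in any comparison, the promoter tag share and the median of the main regions. Chance alone flags about 1 in 20, and 3 were flagged. Psmb6 had 167 scaled tags in MC38 PBS replicate 2, against 113.8 to 116.0 in the other 3 MC38 PBS mice. Psmd9 had 78.4 in the same library, against 64.1 to 65.8 in the others. Psmd5 had 71.3 in C26 PBS replicate 3, against 99.9 to 102.8 in the others. MC38 PBS replicate 2 was the shallowest library of its group with 11.3 M tags and had 16.9% of tags in promoter regions. Its TMM factor of 0.803 was the lowest of all libraries. In deposited values, before division by the factor, it did not stand out upward: Psmb6 had 134.4, inside the 113.1 to 143.6 of the other 3 mice, and Psmd9 had 63.0, below their 65.4 to 80.3. The part of depth in these values was not tested.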

How the results depend on the processing

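Over all settings tried, the calls of Psmb6 and of both Psmd3 regions in C26 cachexia held in 15 of 15 other settings and in 8 of 8 fits with 1 mouse left out, and those of Psmd3 in 8025 cachexia in 15 of 15 and 7 of 7. No named call changed its direction. The Psmb6 log2 change in C26 cachexia ran from 0.49 to 0.62, and that of the upstream Psmd3 region from 0.67 to 0.83 in C26 and 0.60 to 0.81 in 8025. With library totals in place of TMM, calls fell to 0 in C26 pre-cachexia against PBS, to 0 in cachexia against pre-cachexia and to 0 in the 8025 minus MC38 difference. Array weights gave 2 calls in pre-cachexia (3.41% over all regions) and 5 in cachexia against pre-cachexia (7.65%). DESeq2 gave 2 in pre-cachexia (3.54%) and 1 in the C26 minus NC26 difference. For NC26 PBS against MC38 PBS cyclic loess gave 1, series A alone 0 and series B alone 1, the last 2 with 2 mice a group. The cause of these changes was not tested. Calls with 1 mouse left out ran from 3 to 7 in C26 cachexia, 0 to 1 in pre-cachexia, 0 to 3 in cachexia against pre-cachexia, 2 to 2 in 8025 cachexia, 0 to 2 in the 8025 minus MC38 difference, 0 to 1 in the C26 minus NC26 difference and 2 to 5 in NC26 PBS against MC38 PBS. Library totals moved the median of all regions in that last comparison to -0.10, against 0.01 under TMM. There the median of the 98 proteasome regions was -0.03, but -0.15 under library totals, 0.05 under cyclic loess and 0.06 under TMM factors from promoters. Main regions had standard errors of 0.08 to 0.23 in C26 cachexia on the log2 scale, and a difference of 0.22 with an SE of 0.08, at Psme2, was not called.

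With the replicate block, 0 members were called in C26 pre-cachexia, 2 in cachexia against pre-cachexia and 1 in the 8025 minus MC38 difference, and the counts were 4 in C26 cachexia and 2 in 8025 cachexia, as without the block. Replicate numbers did not pair the mice (correlations from -0.155 to 0.0766), so these values carry no more weight. No block fit was made for NC26 PBS against MC38 PBS, whose mice belong to different cohorts.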

Other observations

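Regions farther than 1 kb from a start site, but nearest to the same genes, numbered 259. Of these, 11 were higher and 13 lower in C26 cachexia against C26 PBS, and 9 higher and 11 lower in 8025 cachexia against 8025 PBS. These are 9.27% and 7.72%, against 14.2% and 12.3% called over all regions. The following values were chosen after they were seen. An intergenic region 2202 bp before the Psme4 start site (chr11:30769373-30769773) had 2.98 ± 3.75 scaled tags in C26 cachexia and 15.4 ± 1.54 in C26 PBS (SD, n = 4 each; limma log2 change -2.41 ± 0.35 SE, adjusted p = 1.9e-06). It had 3.85 ± 1.20 in 8025 cachexia (n = 4) and 7.54 ± 1.91 in 8025 PBS (n = 3). A region 11836 bp into the gene, in intron 1 (chr11:30783411-30783811), had 1.99 ± 0.86 in C26 cachexia and 13.1 ± 4.82 in C26 PBS (-2.24 ± 0.37, adjusted p = 1.6e-05). In 8025 cachexia it had 1.32 ± 0.99 (n = 4), and in 8025 PBS 6.38 ± 0.19 (n = 3; -1.77 ± 0.39, adjusted p = 0.0015). In both cohorts its cachexia and PBS libraries did not overlap, while the main Psme4 promoter region was called in neither cohort. Over all regions, 8.8% lay wholly lower in C26 cachexia than in PBS, and 10.9% in 8025 cachexia. Both of these Psme4 regions are weak, and the log2 changes understate their folds.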
